A study of Mus musculus with 2 samples.

Results

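The genes described are 7 that mark newborn neurons and the progenitors that make them: the SoxC genes Sox4, Sox11 and Sox12, and Insm1, Eomes, Dcx and Nhlh1. They were taken by symbol from GENCODE M21 on mm10 and are 7 of the 21755 protein-coding genes on chromosomes 1 to 19 and X. The list was selected on, among other things, the high density of distal peaks at Sox4 and Insm1 in these same data, so those densities are a description only. For each gene, peaks and footprints in the gene body plus 20 kb on each side were read in both libraries. The data are DNase-seq, in which DNase I cuts accessible DNA in nuclei and the cut ends are sequenced. Frontal cortex tissue came from female B6CASTF1/J mice at 10 days of age, the first-generation cross of B6 and CAST mice. The 2 libraries are named biological replicates 1 and 2 of this single group, so no condition was compared. The replicates have separate biosample labels and share a donor label, so separate animals cannot be told from them. No treatment is named, the labels do not explain their mark "3x", and the alleles of the 2 parents were not separated.

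SoxC proteins are transcription factors with a closely similar HMG-box DNA-binding domain, active in neuronal progenitors and in neurons that have just left the cell cycle, where they act on neuronal cytoskeleton genes. Insm1 encodes a zinc-finger repressor of neurogenic progenitors, Eomes a T-box factor of intermediate progenitors, Nhlh1 a basic helix-loop-helix factor of early postmitotic neurons, and Dcx the microtubule-binding protein doublecortin of migrating neurons. In mouse cortex most excitatory neurons are born before birth, while olfactory bulb interneurons go on being made afterwards. In bulk tissue, fewer cells of a type and less open DNA per cell cannot be told apart.

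The deposited peak lists held 104654 peaks in replicate 1 and 81654 in replicate 2, with median signals of 0.604 and 0.880. The signal is the authors' own value for each peak, and neither its scaling nor the sequencing depth is stated. Marker genes of cortical tissue were looked at first. Of 5 cortical excitatory neuron markers, 5 and 4 had an open promoter in replicates 1 and 2, and of 5 markers of the interneuron lineage all were open in both. Among neural progenitor markers 5 and 4 of 5 were open, among those of oligodendrocyte precursors 4 and 3, among those of astrocytes 5 and 3, of endothelium 4 and 2, and of microglia 2 and 2. None of 5 liver markers was open in either library. Over all protein-coding genes 66.6% and 63.8% of promoters were open, so counts among 5 markers were not read as cell content.

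The sequences of 8 open stretches show what the results below turn on, the strongest peaks of Sox4, Sox11, Sox12, Eomes and Nhlh1 and the DNA just before the Insm1 start. They are GRCm38 sequence, written 5′ to 3′ on the strand of the gene, and capitals mark bases under a footprint in both libraries. A footprint is a short stretch that is cut less than its surroundings. Stretches that touch a gene are printed only upstream of it, to at most 300 bases.
Sox4 promoter (chr13:28953714-28953880, minus strand): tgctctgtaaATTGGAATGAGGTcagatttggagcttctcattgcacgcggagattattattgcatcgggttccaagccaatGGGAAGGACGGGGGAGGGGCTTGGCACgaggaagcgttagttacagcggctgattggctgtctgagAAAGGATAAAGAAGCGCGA
Sox4 upstream site (chr13:28957881-28958080, minus strand): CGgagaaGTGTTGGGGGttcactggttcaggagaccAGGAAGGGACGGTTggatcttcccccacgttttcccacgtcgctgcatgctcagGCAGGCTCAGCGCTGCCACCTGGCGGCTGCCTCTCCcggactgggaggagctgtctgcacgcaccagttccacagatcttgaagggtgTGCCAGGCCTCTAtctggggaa
Sox11 promoter (chr12:27342719-27343018, minus strand): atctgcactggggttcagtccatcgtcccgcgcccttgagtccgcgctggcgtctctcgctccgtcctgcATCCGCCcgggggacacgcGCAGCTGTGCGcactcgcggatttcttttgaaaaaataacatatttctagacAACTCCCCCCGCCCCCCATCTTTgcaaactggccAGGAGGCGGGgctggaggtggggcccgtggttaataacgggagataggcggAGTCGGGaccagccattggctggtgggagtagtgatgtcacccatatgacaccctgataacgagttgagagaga
Sox12 promoter (chr2:152398101-152398320, minus strand): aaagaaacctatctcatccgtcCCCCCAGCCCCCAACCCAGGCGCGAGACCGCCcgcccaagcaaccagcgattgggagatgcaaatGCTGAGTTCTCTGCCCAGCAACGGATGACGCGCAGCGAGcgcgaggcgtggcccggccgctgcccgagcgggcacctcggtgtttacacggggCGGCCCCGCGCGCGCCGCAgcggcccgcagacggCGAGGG
Sox12 upstream site (chr2:152406161-152406400, minus strand): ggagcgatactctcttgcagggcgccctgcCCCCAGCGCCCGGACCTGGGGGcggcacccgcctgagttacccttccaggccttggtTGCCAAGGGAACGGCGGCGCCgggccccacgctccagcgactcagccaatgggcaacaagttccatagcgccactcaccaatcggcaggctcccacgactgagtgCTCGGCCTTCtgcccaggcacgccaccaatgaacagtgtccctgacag
Insm1 promoter (chr2:146221621-146221920, plus strand): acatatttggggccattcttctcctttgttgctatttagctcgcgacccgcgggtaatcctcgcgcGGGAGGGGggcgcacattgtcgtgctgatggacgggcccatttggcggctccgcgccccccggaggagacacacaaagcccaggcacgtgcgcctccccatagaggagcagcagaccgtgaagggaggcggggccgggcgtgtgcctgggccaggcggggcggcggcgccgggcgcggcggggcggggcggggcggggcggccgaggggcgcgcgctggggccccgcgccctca
Eomes downstream site (chr9:118489741-118489940, plus strand): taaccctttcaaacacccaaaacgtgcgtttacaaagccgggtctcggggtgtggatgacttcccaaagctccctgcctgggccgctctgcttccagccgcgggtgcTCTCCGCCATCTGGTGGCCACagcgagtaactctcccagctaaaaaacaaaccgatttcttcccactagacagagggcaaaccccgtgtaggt
Nhlh1 downstream site (chr1:172047001-172047180, minus strand): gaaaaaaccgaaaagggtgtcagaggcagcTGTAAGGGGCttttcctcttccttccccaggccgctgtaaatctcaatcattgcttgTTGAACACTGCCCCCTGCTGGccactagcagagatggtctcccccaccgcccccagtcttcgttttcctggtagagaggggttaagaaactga
Among these, the Sox12 promoter had the most bases under footprints of both libraries, 96 of 220, in runs of up to 39 bases. The Sox4 upstream site had 75 of 200, and the Insm1 promoter had 8 of 300. RefSeq promoter sequences on GRCm38 were held for 6 of the 7 genes and were identical to the genome sequence used here.

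Promoters of the 3 SoxC genes were among the more open of the genome. That of Insm1 was near the middle of all genes, those without a peak included, but below the medians of genes open in both libraries. That of Dcx was weakly open, and Eomes and Nhlh1 had no promoter peak. Any peak overlapping the 500 bp on either side of an annotated start made a promoter open, and the strongest such peak gave its signal. Open in both libraries were 5 of the 7 promoters (5 in replicate 1 and 5 in replicate 2). Of all protein-coding genes 66.6% were open in replicate 1, 63.8% in replicate 2 and 63.3% in both, so the share among the 7 is close to the background. The median promoter signal of the 7 was 1.85 and 1.87, against 1.42 and 1.60 over all protein-coding genes and 3.34 and 3.76 over the 13776 genes open in both.

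**Figure D1:**
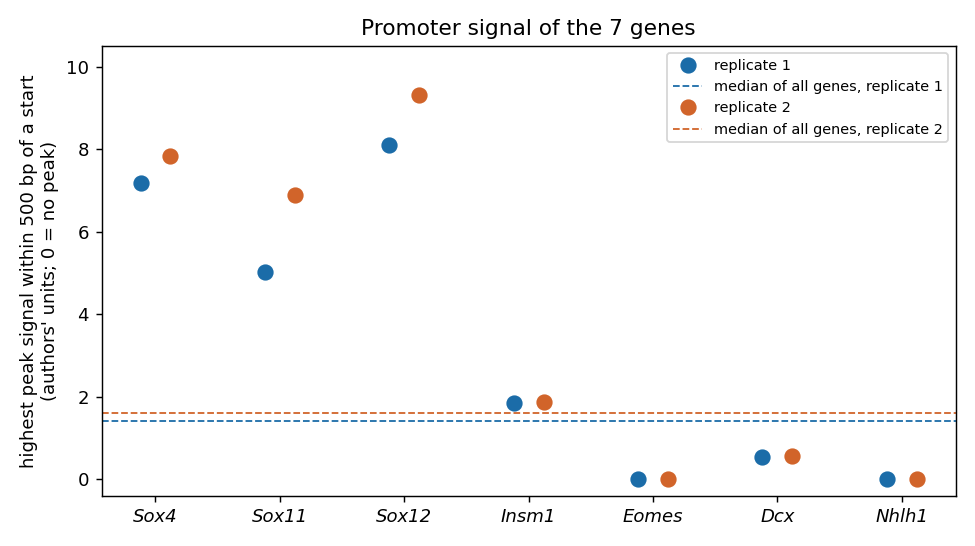
Promoter signal of each gene, as the highest peak signal within 500 bp of a start in the authors' units, with replicate 1 in blue and replicate 2 in orange and 0 for no peak; dashed lines are the medians of all protein-coding genes (1.42 and 1.60). Sox4, Sox11 and Sox12 lie between 5.01 and 9.30, Insm1 just above the medians, and Eomes and Nhlh1 at 0.

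Sox12 (ENSMUSG00000051817.8, chromosome 2, 152393611 to 152398063, minus strand) had the highest promoter of the 7, at 8.09 in replicate 1 and 9.30 in replicate 2. This was above 95.2% of protein-coding genes in each library. Its site merged over both libraries, the stretch printed above, was centred 148 bp from the start and held 4 footprints in each library, all shared. The replicate 1 peak alone was centred 158 bp from the start and held 3. Sox4 (ENSMUSG00000076431.4, chromosome 13, 28948919 to 28953713, minus strand) followed at 7.18 and 7.84, above 92.1% and 91.1% of genes. Sox11 (ENSMUSG00000063632.6, chromosome 12, 27334264 to 27342574, minus strand) had 5.01 and 6.89, above 80.9% and 87.4% of genes. By these ranks within a library, Sox12 lay above Sox4 by more than either gene differed between the libraries. Sox4 ranked above Sox11 in both libraries. The gap between them was larger than the difference between the 2 libraries at Sox11 in replicate 1, but smaller in replicate 2. Those neighbours thus differed beyond their spread in replicate 1 only.

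Insm1 (ENSMUSG00000068154.5, chromosome 2, 146221921 to 146225020, plus strand) had a promoter signal of 1.85 and 1.87, above 54.4% and 52.5% of genes. Such percentages count genes without a promoter peak as lower. Its strongest peak was centred 150 bp from the start in replicate 1 and 180 bp in replicate 2, in the untranslated part of its exon. Dcx (ENSMUSG00000031285.14, chromosome X, 143855842 to 143933311, minus strand) had 0.536 and 0.553, above 37.8% and 38.3% of genes, from a peak 17 and 4 bp from a start. Eomes (ENSMUSG00000032446.14, chromosome 9, 118478212 to 118486132, plus strand) and Nhlh1 (ENSMUSG00000051251.3, chromosome 1, 172052292 to 172057573, minus strand) had no peak within 500 bp of any of their 3 and 1 starts. The order of the 5 open promoters was Sox12, Sox4, Sox11, Insm1 and Dcx in both libraries, and by rank Insm1 and Dcx each lay farther from their neighbours than any of these genes differed between libraries.

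The deposited tables of the local cut rate list bases with a false discovery rate of at most 0.05, and the same promoter windows were read in them, though peaks and tables come from the same cuts. All 1001 bases around the Sox11 start and all 1018 around the Sox12 starts were listed in both libraries. At Sox4 914 and 876 of 1001 bases were listed, at Insm1 1001 and 954, and at Dcx 344 and 190 of 1262. At Eomes 0 of 1650 bases and at Nhlh1 0 of 1001 were listed in either library. Over all protein-coding genes, 67.5% and 64.7% of promoter windows had at least 1 listed base.

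The base composition of the starts also differed among the 7. The ratio of observed to expected CpG in the 1001 bases around the annotated start was 0.971 at Sox12, 0.934 at Insm1, 0.908 at Sox11 and 0.796 at Sox4. It was 0.622 at Eomes, 0.319 at Dcx and 0.0700 at Nhlh1. Of 10072 protein-coding genes with a ratio of at least 0.6, a limit chosen after the values were seen, 94.9% were open in both libraries. Of the 5 members above that limit, 4 were open, and Eomes, a gene with a CpG-rich start, was the exception. Dcx was open with a low ratio, and Nhlh1 had the lowest ratio and no peak.

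Away from the starts the 7 genes differed widely. Peaks were called distal if their centre lay over 1000 bp from every annotated start of any gene, and counted per 100 kb of gene body with flanks. Sox4, chosen for this value, had 11 distal peaks in each library, a density of 24.6 in both, above 99.0% and 99.9% of genes. Insm1, also chosen for it, had 9 in each, a density of 20.9, above 98.6% and 99.8%. Sox12 had 8 and 6 distal peaks (18.0 and 13.5 per 100 kb) and Sox11 had 6 and 4 (12.4 and 8.28). Nhlh1 had 2 and 3 (4.42 and 6.63), Dcx had 3 and 1 over a region of 117 kb (2.55 and 0.851), and Eomes had 0 in both. The median density of the 7 was 12.4 and 8.28, against 2.38 and 1.97 over all protein-coding genes, and it was 4.42 and 6.63 over the 5 genes other than Sox4 and Insm1, a split made after the values were seen.

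Several of these peaks overlap others of the same list. In the 7 regions 15 of 59 peaks of replicate 1 and 19 of 53 of replicate 2 overlapped another peak of their own list, against 4.58% and 3.80% of all peaks. They lay at Sox4 (6 and 7), Sox11 (5 and 4) and Insm1 (4 and 8). After overlapping peaks were merged, Sox4 kept 8 distal stretches in each library (17.9 per 100 kb, above 98.3% and 99.8% of genes) and Insm1 kept 6 (13.9 per 100 kb). Sox11 kept 4 and 2. Sox12, with no overlapping peaks, kept 8 and 6, so in replicate 1 its merged count equalled that of Sox4. The Sox12 count of replicate 1 includes chr2:152411041-152411300 and chr2:152412741-152412854, both nearer to the start of Zcchc3, and the first is also in that of replicate 2. The Sox4 count of replicate 1 includes chr13:28948093-28948276, nearer to a start of Gm26735.

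**Figure D2:**
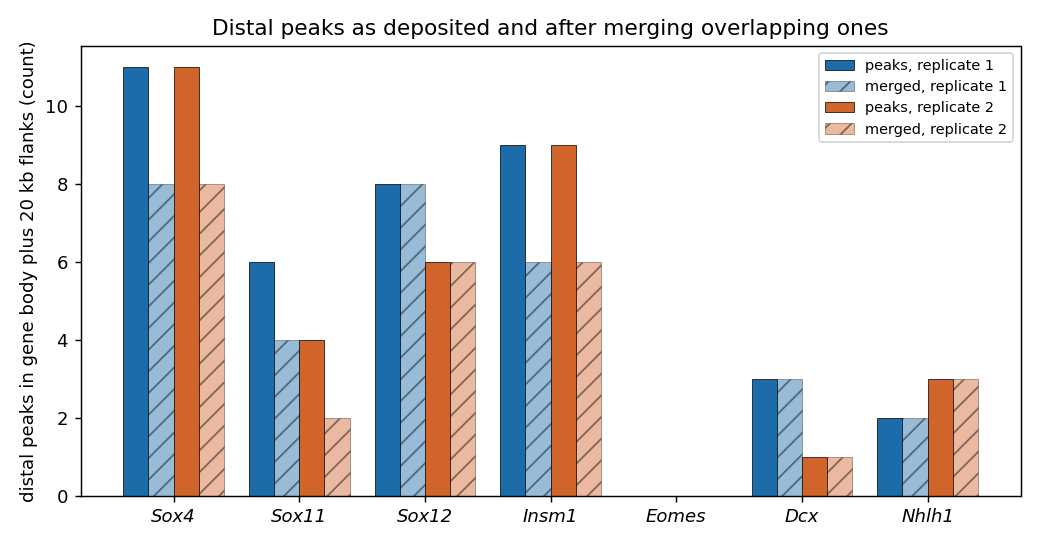
Number of distal peaks in the gene body plus 20 kb flanks of each gene, with solid bars for peaks as deposited and hatched bars for stretches left after merging overlapping peaks (blue replicate 1, orange replicate 2). Merging lowers Sox4 from 11 to 8 and Insm1 from 9 to 6 in both libraries and leaves Sox12 at 8 and 6.

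The positions of the peaks relative to the starts are a description only, since the same share was not counted over all genes. Within 6 kb of the start, a distance chosen after the positions were seen, lay 44 of the 59 peaks of replicate 1 and 44 of the 53 of replicate 2. All 13 and 14 peaks of Sox4 lay there, as did 12 of 13 and 14 of 15 of Insm1 and 9 of 10 and 7 of 7 of Sox11. Sox12 had 8 of 15 and 7 of 11. Its region also holds the starts of 3 other protein-coding genes, Nrsn2, Zcchc3 and 6820408C15Rik, whose promoter signals were 0.714 and 0.801, 3.21 and 4.75, and 0.781 and 0.846. Dcx had 2 of 4 and 1 of 2 of its peaks within that distance, Nhlh1 0 of 2 and 1 of 3, and Eomes none.

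**Figure D3:**
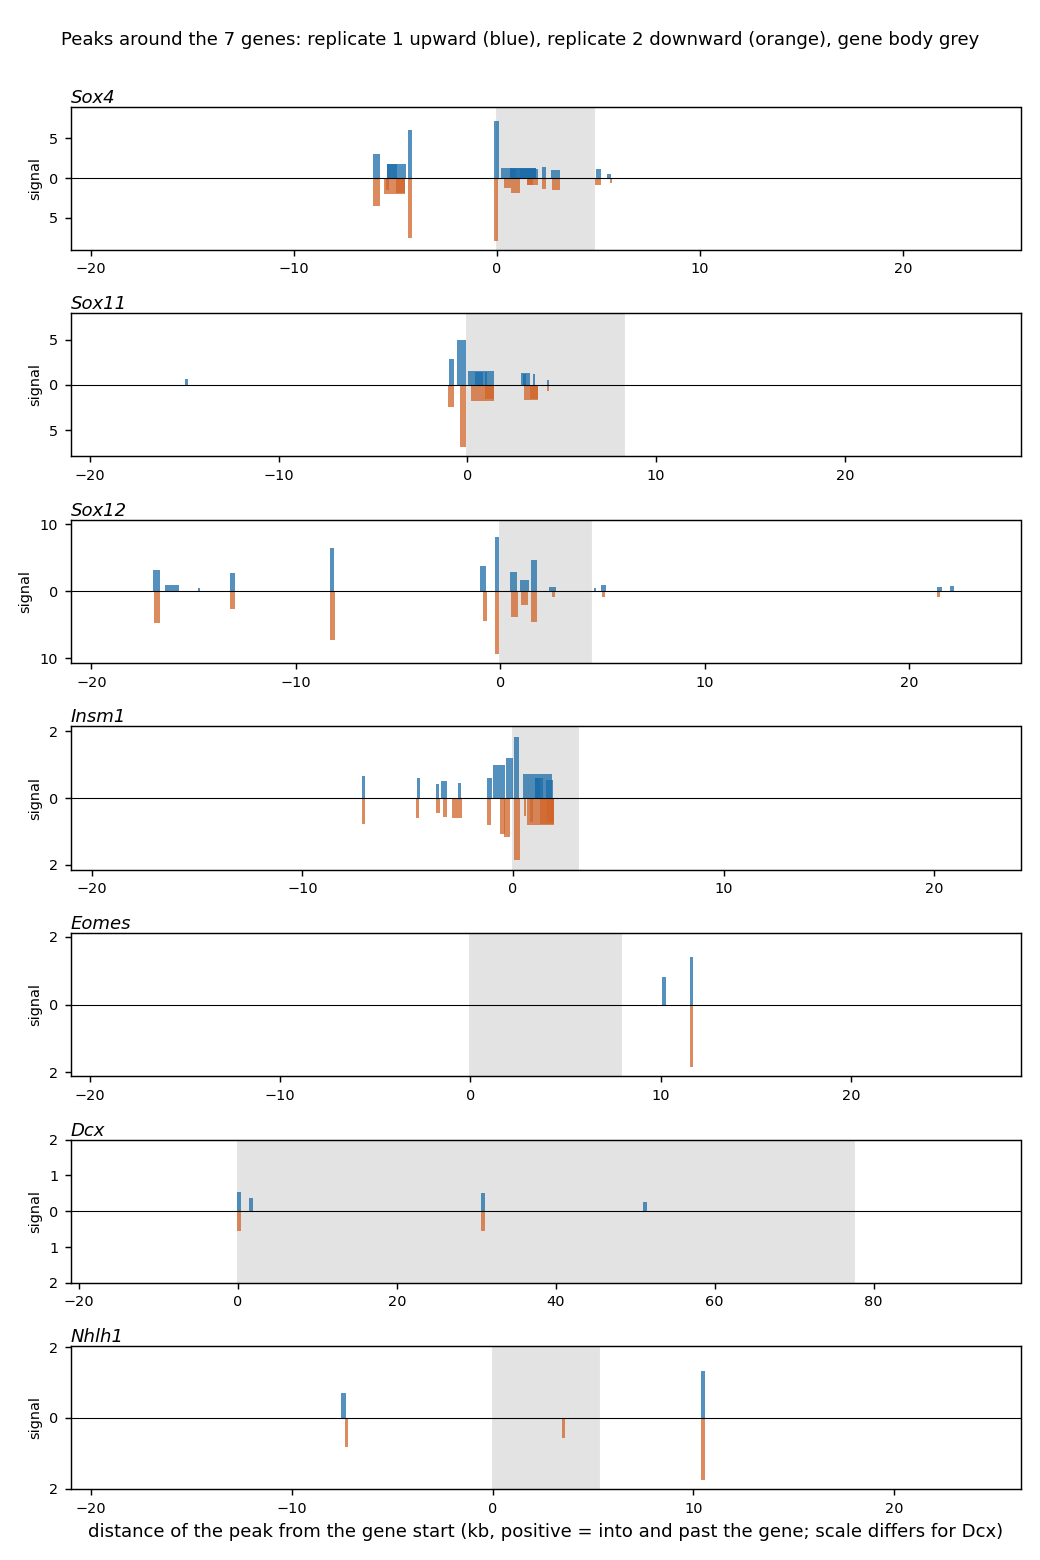
Peaks around each gene by distance from the gene start in kb, with bar height giving peak signal in the authors' units, upward for replicate 1 and downward for replicate 2, and the gene body in grey (signal scales differ between genes, and the distance scale differs for Dcx). Sox4, Sox11 and Insm1 carry clusters of peaks around the start and in the exons, Sox12 carries peaks across its upstream flank, and Eomes and Nhlh1 have isolated peaks only.

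Merging the peaks of both libraries gave 48 open sites in the 7 regions, of which 39 were in both libraries, 8 in replicate 1 only and 1 in replicate 2 only. The strongest site found in a single library had a signal of 0.984. Sox4 had 9 sites and Insm1 had 9, and all of them were in both libraries. At Sox4, a site 4268 bp upstream of the start (the printed upstream site, chr13:28957881-28958080, intergenic) had a signal of 6.09 and 7.53, close to that of the promoter. It held 5 footprints in each library and each overlapped a footprint of the other. Next to it lay a site of 1100 bp with 1.85 and 1.94 and, 5948 bp upstream of the start, a site with 3.07 and 3.50. Within the Sox4 gene, which is a single exon, the coding stretch 1112 bp from the start had 1.35 and 1.85, below the 3 upstream sites in both libraries.

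At Sox12 the strongest distal site lay 8218 bp upstream of the start (the printed upstream site, chr2:152406161-152406400, intergenic), with 6.45 and 7.23. A site in the untranslated part of its exon, 1655 bp from the nearest start, had 4.62 and 4.51 and held 8 footprints in each library. Another site, chr2:152411041-152411300, had 2.71 and 2.64 and is nearer to Zcchc3 (3856 bp from its start) than to Sox12. At Sox11 the sites beyond the promoter were weaker. A site 857 bp upstream, too near the start to count as distal, had 2.90 and 2.50. A stretch in its coding exon had 1.52 and 1.80, and another in the untranslated part had 1.33 and 1.71. A site 14877 bp upstream had 0.682 in replicate 1 and no peak in replicate 2. Both Sox4 and Sox12 thus had an upstream intergenic site with a signal of at least 6.09 in each library, and Sox11 had none in its region.

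At Insm1 all sites were modest. A stretch of 960 bp, merged over both libraries, had 1.21 and 1.18. It reached the start in replicate 1, while its replicate 2 peaks ended at 146221760. The coding exon stretch of 1500 bp, covered by 4 and 5 overlapping peaks, had 0.714 and 0.801. The distal sites upstream had signals between 0.411 and 0.823, and the farthest of its sites lay 197 bp from a start of Cfap61. The high distal density of Insm1 thus came from peaks with signals of at most 0.823. The median signal of all its peaks, those near the start included, was 0.599 and 0.722, against 1.35 and 1.47 at Sox4. Over all peaks of the libraries it was 0.604 and 0.880, so in replicate 1 the peaks of Insm1 were near the middle.

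The other 3 genes had few sites. Eomes had 1 site in both libraries, chr9:118489741-118489940, past its end and 742 bp from the start of Gm33460, with 1.39 and 1.84, and 1 weaker site in an intron of Gm33460 in replicate 1 alone (0.802). Dcx had its promoter peak, an intronic site 30539 bp from the nearest start with 0.516 and 0.541, and 2 intronic sites of replicate 1 alone with 0.365 and 0.245. Nhlh1 had a site 10482 bp from its start, past its end (chr1:172047001-172047180), with 1.33 and 1.76. A site upstream of Nhlh1 with 0.693 and 0.812 is nearer to Ncstn, and a site in its coding exon was found in replicate 2 alone, at 0.575.

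The 2 libraries held mostly the same sites. Replicate 1 had 59 peaks in the 7 regions and 51 of them (86.4%) were matched in replicate 2, against 64.8% of its peaks overall. Replicate 2 had 53 and 51 of them (96.2%) were matched, against 82.9%. In the shorter deposited list lay 43 of the 59 and 37 of the 53, against 56.6% and 56.8%. The median signal of these peaks was 1.18 and 1.24, above that of all peaks (0.604 and 0.880), and the part of signal in these shares was not tested. Among the 39 sites in both libraries, 31 had the higher signal in replicate 2, as all peaks tended to.

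Signals were then compared peak by peak for peaks that matched 1 to 1, each overlapping no other peak of the other library. Overlap with a peak of the same list was allowed. The log2 ratio of replicate 1 to replicate 2 had its median at -0.25 over 61026 such peaks, with 0.32 as its SD. For the 33 peaks in the 7 regions the median was -0.17 and the SD 0.22. After the overall median was subtracted, 29 of the 33 lay within 1 SD and 32 within 2 SD, against 70.5% and 95.0% of all such peaks. The exception was a peak of Sox4 just past its end, chr13:28948581-28948820, with 1.18 and 0.891 and a centred log2 difference of 0.66. It was thus the only peak of the 33 whose replicates differed by more than 2 SD of the differences over all peaks.

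**Figure D4:**
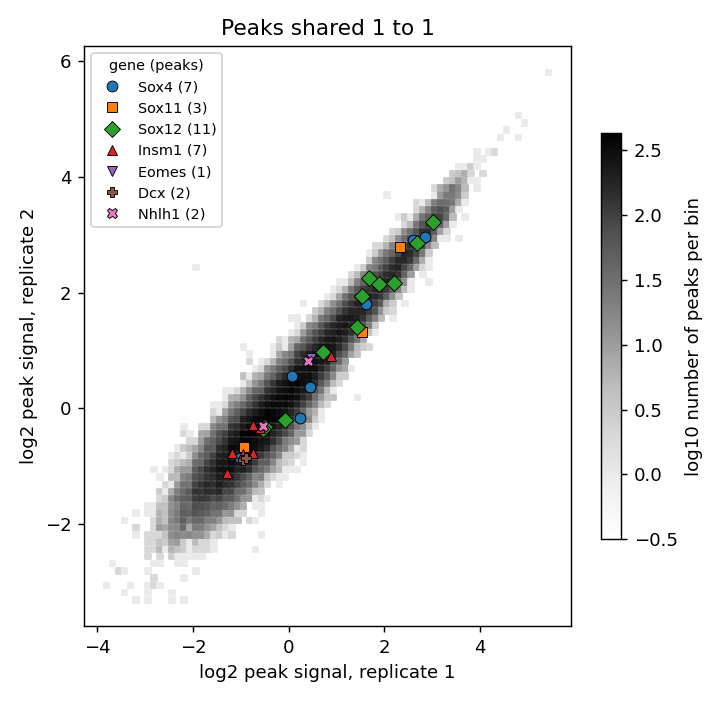
Signal of peaks shared 1 to 1 on log2 axes, replicate 1 against replicate 2, with all 61026 peaks as grey bins (shade gives log10 of the number of peaks) and the 33 peaks of the 7 regions as coloured symbols by gene. The peaks of Sox12, Sox4 and Sox11 reach the upper part of the cloud, and those of Insm1, Dcx and Nhlh1 lie lower, all along the same band.

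Footprints followed the peaks. The 7 regions held 226 footprints in replicate 1 and 151 in replicate 2, of which 189 and 126 lay in peaks, and 93 and 94 overlapped a footprint of the other library. These 2 shares were not counted over all footprints, so whether they are high or low cannot be judged. Of the peaks, 55 of 59 (93.2%) and 40 of 53 (75.5%) held a footprint, against 82.3% and 72.0% of all peaks, so in replicate 2 the share was near the background. Sox12 had the most footprints, 69 and 45, followed by Sox11 with 49 and 28, Sox4 with 48 and 42, and Insm1 with 39 and 26. Eomes had 10 and 1, Dcx 7 and 2, and Nhlh1 4 and 7. Per 100 kb the median over the 7 genes was 90.5 and 58.0, against 20.8 and 13.9 over all protein-coding genes. At 27 of the 48 sites at least 1 footprint was shared by the libraries, a share that was not counted over all sites either. All footprints carry the same deposited value, so they could not be ranked.

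Matches to 20 motifs were searched on both strands in the 200 bp around each peak centre, and footprints had to cover at least 0.5 of a match for it to count as covered. The letters searched were TGACGTCA (CRE), CGCATGCG (NRF1), CAGATG and CAGCTG (E-boxes), AACAAAG or AACAATG (SOX), ATGCAAAT (POU octamer), TTGGCA (NFI core), GTTGCCAT (RFX), GCGTGGGCG (EGR), CCGGAAGT (ETS) and AGGTGTGA (T-box). The others were CTAAAAATA (MEF2), TGAGTCA (AP-1), ACATTCCA (TEAD), TAATTA (homeobox), GGGGCGGGG (SP/KLF), AAGATGGCG (YY1), TTCAGCACC (REST), GTGGGAA (RBPJ) and the CTCF motif. A match describes the letters only.

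Exact matches to the CTCF pattern searched, that of the insulator-binding factor, were found at 2 sites, both printed above: the downstream sites of Eomes and of Nhlh1. Letters close to that pattern but not equal to it were not looked for, at the Sox4 upstream site or elsewhere. Each match lay wholly under a footprint in both libraries. The Eomes match takes up most of the single capital run of that sequence and overlaps a CAGATG match. The motif was held by 4.74% and 5.44% of all peaks, and 94.6% and 83.4% of all its matches were under a footprint. So the strongest sites near the 2 genes without a promoter peak both held an exact match, which does not show that the other sites lack CTCF-like letters.

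At the SoxC promoters the covered matches differed from gene to gene. The Sox4 promoter had an NFI core wholly under footprints of both libraries, centred at position -62 from the gene start, and the Sox12 upstream site had another. NFI cores were in 15.7% and 15.4% of all peaks, and 21.7% and 16.7% of all matches were under a footprint. The Sox11 promoter had a CAGCTG E-box at -351 and an SP/KLF match at -292, both wholly covered in both libraries. CAGCTG was in 18.6% and 18.0% of all peaks and SP/KLF in 4.40% and 4.93%. The Sox12 promoter held a POU octamer, in 1.07% and 1.19% of all peaks, at -174 just before a long capital run, and 0% and 25% of it was covered. The printed Insm1 promoter held 3 overlapping SP/KLF matches between -52 and -42, outside the 200 bp windows. None was under a footprint in either library. In replicate 2 the 3 matches also lay in no called peak, between peaks that end at 146221760 and start at 146221961. Of all SP/KLF matches within windows, which lie around peak centres, 67.2% and 59% were under a footprint, so these shares are not a like comparison. An SP/KLF match in the Sox12 coding exon was covered in both, as were an SP/KLF and an EGR match at the Zcchc3 promoter.

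SOX matches, the letters bound by the family of Sox4, Sox11 and Sox12, were found 4 times in the 7 regions, and 0 of the 4 lay under footprints in both libraries. Taken library by library, 1 of 3 was under a footprint in replicate 1 and 0 of 3 in replicate 2. The covered one, 134 bp into Insm1, had 0.714 of its bases covered in replicate 1 and 0.429 in replicate 2. Over all peaks SOX matches were in 5.66% and 5.33%, and 8.22% and 5.43% of all matches were under a footprint of that library. RBPJ matches, of the Notch effector, were found 3 times, 1 of them in the Sox4 upstream site, and none was under footprints in both libraries. Over all peaks RBPJ matches were in 5.45% and 5.49%, and only 11.5% and 9.68% of all matches were under a footprint of that library. The lack of covered RBPJ matches is thus no result about these genes. CRE, NRF1, ETS, MEF2, TEAD, homeobox, YY1 and REST letters had 0 matches in these windows, and each was held by between 0.370% and 2.66% of all peaks.

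A list of 33 related genes was set beside the 7: proneural factors, Notch ligands and modifiers, cytoskeleton genes of young neurons and cofactors of Insm1. Of them 31 had an open promoter in both libraries, against 63.3% of all protein-coding genes. Neurod4 and Nhlh2, a bHLH factor gene like Nhlh1, had no promoter peak in either. The median promoter signal of the list was 1.64 and 2.11, against 1.42 and 1.60 over all genes and 3.34 and 3.76 over genes open in both. Its median distal density was 6.61 and 4.52 per 100 kb, against 2.38 and 1.97 over all genes. By the mean of the libraries, the highest promoters were those of Rcor1, which encodes a corepressor that works with histone demethylase LSD1, at 10.1 and 10.4, and of Btg2, an antiproliferative gene, at 5.57 and 6.15. Within single libraries Btg2 was not next to Rcor1: Stmn1 had 5.76 in replicate 1, and Kdm1a, the LSD1 gene, and Gadd45g had 6.23 and 6.16 in replicate 2. By the same mean, the highest densities were at Btg2 with 27.3 and 20.5, at Tubb2b, a tubulin gene of young neurons, with 20.6 and 16.0, and at Gadd45g with 19.1 and 14.4. In replicate 1 alone Neurog2, a proneural factor gene, with 25.9, and Rcor2, with 20.9, were above Tubb2b, but in replicate 2 they had 7.06 and 6.26. Tubb3, a target of SoxC factors, had a promoter signal of 3.37 and 4.54. The promoters of Btg2, Tubb2b and Gadd45g were above that of Insm1 in both libraries, and their densities lay in the range of Sox12, Insm1 and Sox4, save that of Btg2 in replicate 1.

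**Figure D5:**
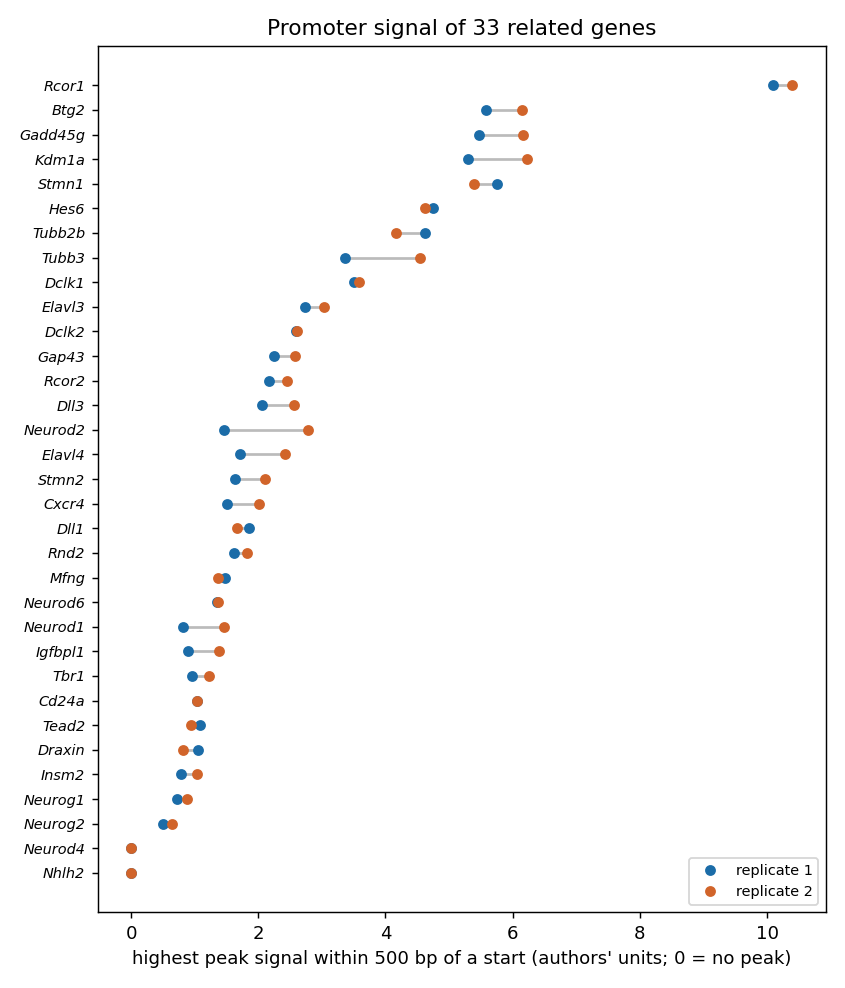
Promoter signal of 33 related genes, as the highest peak signal within 500 bp of a start in the authors' units, with replicate 1 in blue and replicate 2 in orange and a grey line joining the libraries; genes are ordered by their mean. Rcor1 stands highest at 10.1 and 10.4, and Neurod4 and Nhlh2 lie at 0.

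The genes most like Sox4 and Insm1 were then named by 6 values, namely the percentile ranks of promoter signal, distal density and footprints per 100 kb in each library, among 11686 genes with regions of 40 to 60 kb. Nearest to Sox4 were Gsk3a, a kinase gene (distance 2.51 percentile points, promoter 7.17 and 7.70, density 16.1 and 14.1), Id2, which encodes an inhibitor of bHLH factors (2.74), and Ythdf1, which encodes an RNA-binding protein (3.24). Nearest to Insm1 were Gpr162 (4.19), Prrt4 (5.07) and Tubg2 (5.17). After overlapping peaks were merged, Id2 had 8 distal stretches in each library and Ythdf1 had 12 and 8, against 8 in each at Sox4.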

How the data were processed

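Peak lists, footprint lists and cut-rate tables of 2 DNase-seq libraries were used, called per library on mm10 per the labels and the text files deposited with them. The aligner, the callers and their versions were not given in the sources used here. Peak signal, as deposited by the authors, has no stated scaling, so values are given per library, and differences between libraries were judged by rank or after centring. The score deposited by the authors with each footprint was 0.01 in all rows. The authors deposited cut-rate tables of false discovery rates (q-value scale, akin to a p-value) of at most 0.05. The longer peak list was used, and overlaps were counted from 1 bp. Positions were set against GENCODE M21, and sequence came from GRCm38.p6, with promoter sequences from RefSeq checked against it. Work was done in Python 3.11.15 with numpy 2.4.6, pandas 2.3.3, pysam 0.24.0 and matplotlib 3.10.9, and was tested on simulated data (500 overlap queries, 2000 genes and 200 motif windows, with 0 wrong). With 1 group of 2 libraries and members chosen on these data, no test was run. The members, gene lists and motifs were chosen with earlier results of these data known. Named were all 7 genes, their promoter peaks and up to 3 of the strongest distal peaks each, neighbours, and the related genes with the highest and lowest promoters and highest densities by the mean of the libraries. Sites and genes named beyond that, Tubb3, Neurog2, Rcor2, Stmn1 and Kdm1a among them, were chosen after their values were seen. Other windows, flanks, lists, overlap rules and single libraries were tried as alternatives.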

Additional observations from a re-analysis of the deposited data

How the results depend on the processing

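The count of open promoters was 5 in each library alone, and 4 in both with the shorter peak list or the strongest 50% of peaks, where Dcx was lost. The median promoter signal stayed between 1.85 and 1.87 under the 8 alternatives run, and related genes open in both ranged from 25 to 32. The median distal density, 10.3 per 100 kb as the mean of the libraries, was 8.28 to 12.4 in single libraries, 4.42 with the shorter list, 3.42 with the strongest 50% of peaks, 54.1 with no flank, 5.34 with 100 kb flanks and 15.5 with distal set at over 500 bp. Without Sox4 and Insm1, an alternative chosen after seeing the data, it was 5.52. The share of peaks found in the other library, 91.3%, was 86.4% to 96.2% in single libraries, 83.0% with 100 kb flanks and 63.6% with 50% reciprocal overlap. At 100 kb flanks, 21 of the 33 replicate 1 peaks around Nhlh1 had no match in replicate 2. Motif matches under footprints, 14.5 a library, fell to 9.5 where the whole match had to be covered. The share of peaks with a footprint was 75.5% to 93.2% in single libraries. The cause of these shifts was not tested. No paired analysis was possible because there is 1 group. With 2 libraries, no read totals and no stated scaling, a missing peak is not shown to be absent DNA cutting, and small differences in signal between genes cannot be judged.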
